A study of Mus musculus with 6 samples.

Results

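The clustered protocadherins are cell surface adhesion proteins of the cadherin superfamily, encoded in neighbouring alpha, beta and gamma arrays on mouse chromosome 18. The genes described here are every gene of the deposited count table whose name carries the Pcdha, Pcdhb, Pcdhga, Pcdhgb or Pcdhgc stem, chosen by name and not by level. There were 57 of them among 27372 genes. The alpha cluster gave 14 (12 alternate genes and the C-type genes Pcdhac1 and Pcdhac2), the beta cluster 22, and the gamma cluster 21 (11 of type A, 7 of type B and the C-type genes Pcdhgc3, Pcdhgc4 and Pcdhgc5). In mm10, the build named in the submitters' processing notes, they spanned chr18:36930184-37841873 on the plus strand, 911690 bases in all. Pcdhga10 is not analysed here. The table gives the symbol Pcdha11 to 2 gene IDs. ENSMUSG00000007440, which RefSeq places at Pcdha10, is called Pcdha10 below.

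The libraries came from neural stem cells of postnatal day 7 mice, grown as neurospheres (floating balls of dividing progenitors). The DMEM/F12 medium held 2% B27, 0.2% BSA and the mitogens EGF and bFGF at 20 ng/ml each. Total RNA was taken on culture day 7 and sequenced in bulk. The control group (n = 3) is labelled wild type, and the other group (n = 3) carries the label Sirt6 cKO, a conditional knockout of a chromatin-bound NAD-dependent deacylase. The sources used here give neither the Cre driver, the strain nor the number of animals behind each library, and state no allele or agent beyond these for either group. Whether replicates came from separate cultures or animals is not stated, and p-values measure only how far these samples differ.

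Each alpha and gamma gene has a large first exon of its own, the variable exon, with its own promoter, and joins it by splicing to constant exons shared by the cluster. The beta genes lack shared constant exons. A neuron is known to switch on a few alternate promoters by chance, through antisense transcription, loss of DNA methylation and looping to distant enhancers by CTCF and cohesin, while C-type genes are mostly switched on without that choice. The proteins pair like with like between cell membranes, which lets a neuron tell its own branches from those of others, and the gamma proteins also support the survival of interneurons.

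The library labels were checked first on the targeted gene. Sirt6 had 380, 293 and 260 counts across control replicates 1 to 3, against 474, 492 and 442 for the knockout-labelled ones. The ranges did not meet, and the direction goes against the label. In edgeR its log2 fold change was 0.61 ± 0.19 (SE), with an edgeR quasi-likelihood adjusted p of 0.998. Gene counts do not show a deleted exon, and the targeted exon is not stated. The libraries held between 17198852 and 18297275 counts. Xist and Y-linked transcripts differed among the controls and between the groups. Control replicate 2 had 9 Xist counts, and the other 5 libraries had 32116 to 62927. Summed Y-linked genes measured 67.5, 234 and 0 CPM in controls and at most 0.755 CPM in knockout-labelled libraries. The 3 controls were therefore not drawn from a common pool of cells. Sex composition thus also differed between the groups, and its part in the group differences below was not tested. All 10 neural stem cell markers reached 1 CPM (counts per 1000000) in every library, with a summed level of 9126 to 11470 CPM in controls and 9312 to 11484 CPM in knockout-labelled libraries. Microglial markers summed to at most 0.516 CPM in any library.

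The 3 clusters were all transcribed, at very unequal levels. Levels of different genes are compared here as CPM per kb of exon not shared with another annotated gene of the same strand. Library sizes were scaled by TMM, and levels are means over the 6 libraries. Pcdhgc3 stood far above every other member at 59.4 CPM per kb. Pcdhac2 followed at 6.51, then Pcdhga3 at 6.05, Pcdhgc4 at 5.64, Pcdhgb6 at 5.47, Pcdhb5 at 5.35 and Pcdhb20 and Pcdhgb1 at 5.25 each. The median level was 2.93 CPM per kb over the 11 gamma A genes, 2.33 over the 22 beta genes, 1.52 over the 7 gamma B genes and 0.154 over the 12 alpha alternate genes. The highest of the 12 alpha alternate genes, Pcdha9, reached 0.907 CPM per kb, below every one of the 18 gamma A and B genes, whose lowest was 1.08.

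**Figure D1:**
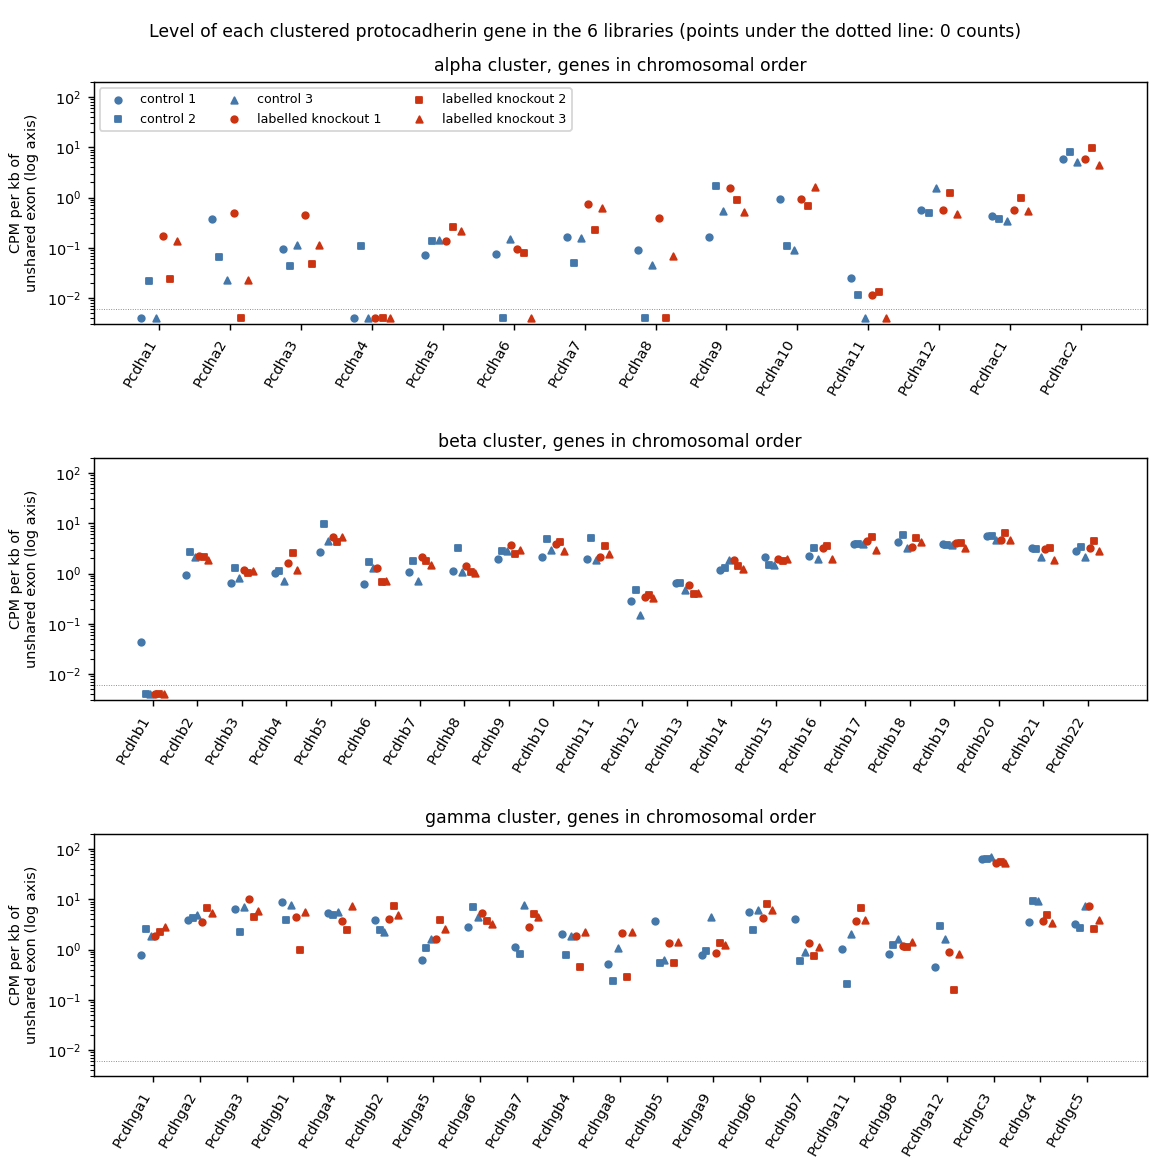
Level of each of the 57 genes in each library, in CPM per kb of unshared exon on a log axis, with genes in chromosomal order within the alpha, beta and gamma panels. Blue points are controls and red points knockout-labelled libraries, with marker shape giving the replicate number, and points under the dotted line had 0 counts. Pcdhgc3, at the right of the gamma panel, is the highest member, and most alpha alternate genes lie lowest.

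Summed over all 57 genes, the level was 604, 684 and 696 CPM in control replicates 1, 2 and 3 and 652, 667 and 602 CPM in knockout-labelled libraries. The group ranges overlapped, and the totals of the groups differed by less than the spread between replicates (661 ± 49.9 against 640.3 ± 34.4 CPM, SD, n = 3 each). Gamma genes gave 61.7% ± 7.55 of all member counts in controls and 58.3% ± 3.99 in knockout-labelled libraries. Because these are bulk samples, fewer cells expressing a gene and less RNA per cell cannot be told apart in any value below.

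The C-type genes made up a large part of the sum in every library. Together the 5 genes measured 255, 285 and 319.9 CPM in controls and 245, 244 and 224 CPM in knockout-labelled libraries. The groups did not overlap, and the log2 ratio of the group means was -0.27, with no test made on a sum over chosen genes. As a share of all member counts, C-type genes took 42.2%, 41.6% and 45.9% in controls and 37.6%, 36.6% and 37.3% in knockout-labelled libraries, again without overlap. Without Pcdhgc3, the other 4 C-type genes summed to 66.0 ± 18.7 CPM in controls and 56.7 ± 11.5 CPM in knockout-labelled libraries, and those ranges overlapped.

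Pcdhgc3 (ENSMUSG00000102918, chr18:37806364-37841873), a C-type isoform known in mouse cortical neurons to promote dendrite branching, supplied most of that sum. Its level was 209, 215 and 237 CPM in controls and 179, 184 and 180.3 CPM in knockout-labelled libraries. All 3 knockout-labelled libraries lay below all 3 controls. The fitted log2 fold change was -0.28 ± 0.11 (SE), with an edgeR unadjusted p of 0.0392 and an adjusted p of 0.998, so it did not pass. Pcdhgc3 also had the smallest spread of all members: the SD of its log2 CPM between replicates of a group, pooled over both groups, was 0.069. An antisense gene, BC037039, overlaps its exons by 1559 bases at a mean of 1.82 CPM in controls and 1.68 CPM in knockout-labelled libraries.

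Pcdhgc4 is the isoform that neuronal survival is known to depend on in mouse. It measured 12.2, 32.1 and 32.2 CPM in controls and 12.9, 16.7 and 11.6 CPM in knockout-labelled libraries. Control replicate 1 lay among the knockout-labelled libraries, well below the other controls. The log2 fold change was -0.89 ± 0.38 (SE), with an edgeR unadjusted p of 0.0484 and an adjusted p of 0.998.

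Pcdhgc5 has been found to bind GABA receptors in rodent neurons. Its levels were 14.7, 12.1 and 34.0 CPM in controls and 33.7, 11.9 and 17.7 CPM in knockout-labelled libraries, with a high library in each group. In edgeR its log2 fold change was 0.06 ± 0.50 (SE).

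Pcdhac2, the C-type alpha gene that serotonergic axons in mouse need for their even spacing, carried 54.5% to 76.3% of alpha counts in every library. Its levels were 17.8, 24.5 and 15.6 CPM in controls and 18.1, 28.9 and 13.4 CPM in knockout-labelled libraries. In each group replicate 2 was the highest and replicate 3 the lowest, and the groups overlapped throughout (log2 fold change 0.06 ± 0.31, SE).

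Pcdhac1, the other C-type alpha gene, was scarce, with 1.09, 0.969 and 0.859 CPM in controls and 1.46, 2.51 and 1.38 CPM in knockout-labelled libraries. All 3 knockout-labelled libraries lay above the controls. The fitted log2 fold change was 0.86 ± 0.39 (SE), with an edgeR unadjusted p of 0.0587. These levels rest on 15 to 42 counts per library.

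Among the alpha alternate genes, 9 of 12 fell below the count filter and were not tested by edgeR or limma-voom (Pcdha1 to Pcdha8 and Pcdha11). DESeq2 without a block, run without that filter, tested 12 and called 0. Pcdha9, Pcdha10 and Pcdha12 passed it. Pcdha9 ranged from 0.403 CPM in control replicate 1 to 4.25 CPM in control replicate 2, with 3.94, 2.27 and 1.26 CPM in knockout-labelled libraries. Pcdha12 measured 1.38, 1.24 and 3.78 CPM in controls and 1.40, 2.99 and 1.15 CPM in knockout-labelled libraries. Both encode adhesive isoforms of the choosable kind, and neither separated the groups (log2 fold changes 0.31 ± 0.80 and -0.21 ± 0.58, SE). Pcdha10, named after its values were seen, measured 2.36, 0.269 and 0.229 CPM in controls and 2.32, 1.73 and 4.01 CPM in knockout-labelled libraries.

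The sum of the 12 alpha alternate genes was even among controls, at 6.33, 6.62 and 6.87 CPM, and was 13.6, 8.49 and 9.11 CPM in knockout-labelled libraries. The groups did not overlap, and the log2 ratio of the means was 0.66, or 0.41 without labelled knockout replicate 1. The leading gene of the 12 changed from library to library: Pcdha10 in control replicate 1 and labelled knockout replicate 3, Pcdha9 in control replicate 2 and labelled knockout replicate 1, and Pcdha12 in the remaining 2 libraries. At least 1 CPM was reached by 2 of the 12 in every control and by 6, 3 and 4 of them in knockout-labelled libraries. Pcdha4 had 0 counts in 5 of the 6 libraries, so reads from the constant exons it shares were not credited to every alpha gene. Another annotated gene, Gm42416, shares its variable exon, which leaves Pcdha4 with 494 bases of unshared exon. The part of that overlap in its counts was not tested.

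The beta genes formed an even series in which most members were present in every library. Beta counts summed to 198, 285 and 195 CPM in controls and 243, 263 and 202 CPM in knockout-labelled libraries, with overlapping ranges. Evenness was described by the effective number of members, the exponential of the Shannon entropy of the members' shares, which equals the number of genes when all share the counts evenly. It was 15.7, 16.6 and 16.2 for the beta cluster in controls and 17.2, 16.2 and 16.7 in knockout-labelled libraries, out of 22 genes. Pcdhb1 was nearly silent, with 2 counts in control replicate 1 and 0 in the other 5 libraries.

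Within the array, the genes nearer the gamma cluster were higher: the median level was 1.48 CPM per kb over Pcdhb1 to Pcdhb15 and 3.76 over Pcdhb16 to Pcdhb22. Across the 22 beta genes the Spearman correlation of level per kb with chromosomal order was 0.51, given as a description because neighbouring genes share libraries and sequence. In the 11 gamma A genes the same correlation was -0.60, although the first of them, Pcdhga1, lay below the class median at 2.03 CPM per kb.

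Pcdhb5, the highest beta gene per kb, measured 9.49, 34.7 and 15.9 CPM in controls and 19.2, 15.004 and 19.2 CPM in knockout-labelled libraries. The whole range lay within the controls (log2 fold change -0.17 ± 0.44, SE). Pcdhb20, the next, was steady at 19.7, 20.1 and 16.7 CPM in controls and 16.3, 22.4 and 16.8 CPM in knockout-labelled libraries (log2 fold change -0.03 ± 0.19, SE). Control replicate 2 held the highest value of 10 of the 21 tested beta genes.

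Pcdhb4 was the single beta gene whose groups did not overlap. It measured 3.74, 4.20 and 2.63 CPM in controls and 5.99, 9.33 and 4.47 CPM in knockout-labelled libraries, higher in all 3 of the latter. The log2 fold change was 0.90 ± 0.36 (SE), with an edgeR unadjusted p of 0.0380 and an adjusted p of 0.998.

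The gamma cluster was led by Pcdhgc3 in every library, with 49.7% to 58.6% of gamma counts in controls and 47.6% to 50.5% in knockout-labelled libraries. These ranges overlapped, with control replicate 3 below labelled knockout replicate 2. The effective number of gamma members was 6.78, 5.80 and 7.86 in controls and 8.46, 7.53 and 8.97 in knockout-labelled libraries, also overlapping. Outside the C-type genes, the 18 gamma A and B genes summed to 144, 107 and 174 CPM in controls and 150.1, 152 and 167 CPM in knockout-labelled libraries.

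The gamma A and B genes varied between replicates of the same group more than any other class with over 3 tested members. The median SD of log2 CPM between replicates was 0.88 over these 18 genes, against 0.38 over the 21 tested beta genes and 0.28 over all 15087 genes tested. Counting error alone would give a median SD of 0.16 at the depth of these 18 genes. All 18 lay above the median of all genes. The highest library was at least 5 times the lowest for 9 of the 18 genes, for 0 of the 21 beta genes and for 1249 of the 15087 genes tested.

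**Figure D2:**
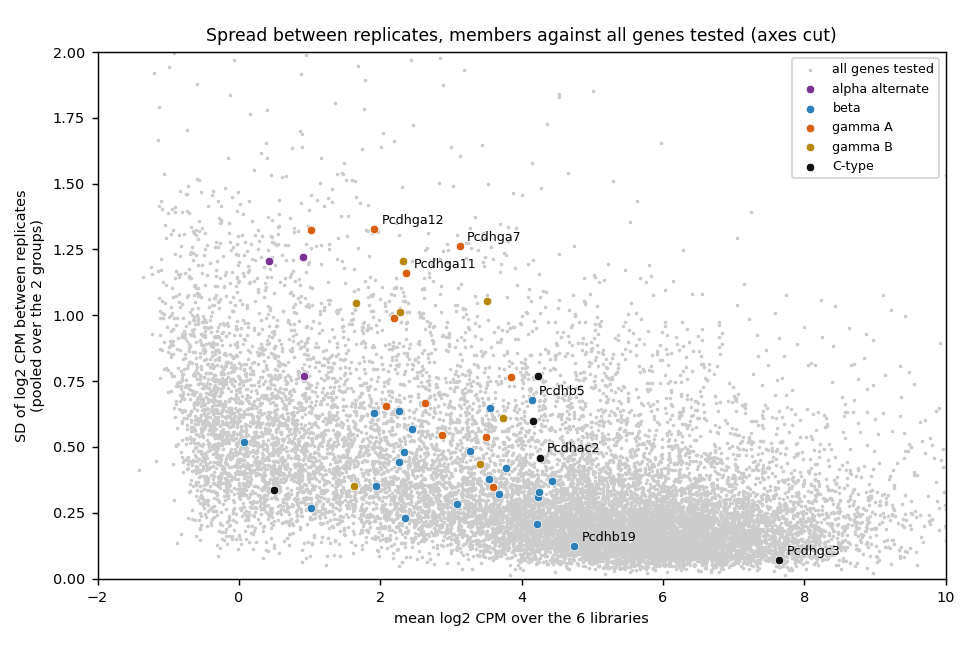
SD of log2 CPM between replicates, pooled over both groups, against mean log2 CPM over the 6 libraries. Grey points are all genes tested, coloured points the 47 tested members by class, and the axes leave out a few of the grey points. Gamma A and B genes lie high (median SD 0.88), beta genes nearer the bulk of genes (median 0.38), and Pcdhgc3 at the lower right (0.069).

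Different genes stood out in different libraries. Pcdhga7, Pcdhgb5, Pcdhga12 and Pcdhgb8 are named here after their values were seen. Pcdhga7 measured 24.2 CPM in control replicate 3 against 3.45 and 2.58 CPM in the other controls. Pcdhgb5 reached 17.3 CPM in control replicate 1, against 2.48 and 2.92 CPM in the other controls. Pcdhga12 was at 13.3 CPM in control replicate 2 and at 0.717 CPM in labelled knockout replicate 2. Each of these peaks belonged to a different control, so no control library was high for all of them. Pcdhgb8, annotated as a polymorphic pseudogene, ran from 2.07 to 4.01 CPM over the 6 libraries.

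The pattern over genes can be compared between libraries. For the 18 gamma A and B genes, Pearson's r of log2 CPM between pairs of controls was 0.33 to 0.54, between pairs of knockout-labelled libraries 0.55 to 0.84, and between same-numbered libraries of the 2 groups 0.17 to 0.64. For the 21 beta genes every pair of libraries lay between 0.86 and 0.97. These correlations run across genes that share libraries and are given as descriptions.

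**Figure D3:**
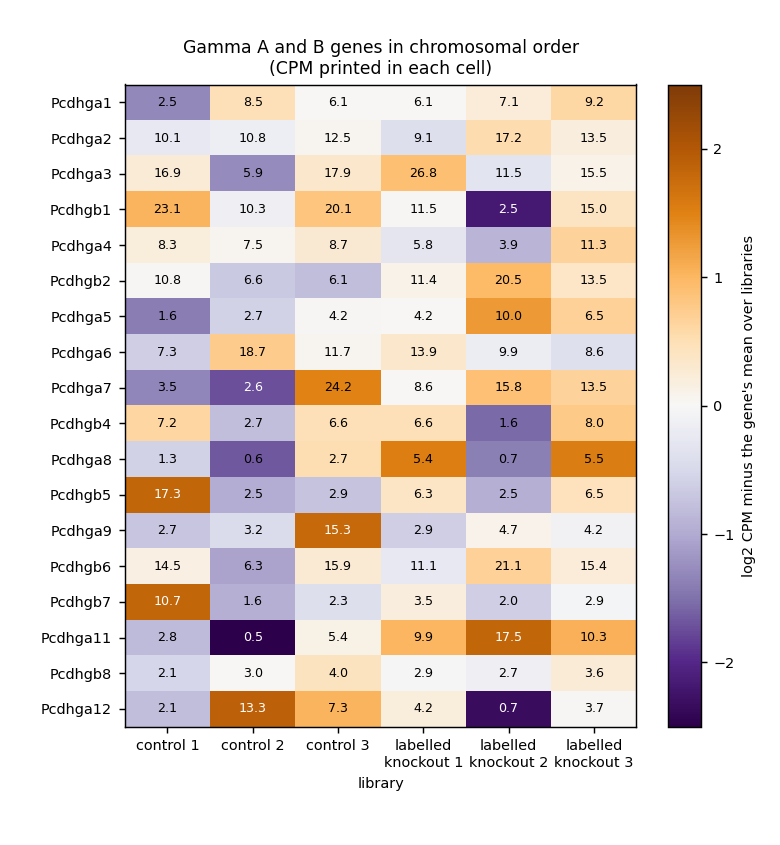
The 18 gamma A and B genes in chromosomal order (vertical axis) in the 6 libraries (horizontal axis). Colour gives log2 CPM minus the gene's mean over libraries, and the number in each cell is CPM. Pcdhga11 is low in the 3 controls (0.538 to 5.38 CPM) and high in the 3 knockout-labelled libraries (9.93 to 17.5 CPM), while most other genes peak in scattered libraries.

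Pcdhga11 (ENSMUSG00000102742, chr18:37755731-37841873), a type A isoform, gave the largest positive fold change of the 47 tested members. Its levels were 2.76, 0.538 and 5.38 CPM in controls and 9.93, 17.5 and 10.3 CPM in knockout-labelled libraries. Every library labelled knockout was above every control, and labelled knockout replicate 2 and control replicate 2 were the extremes. In edgeR its log2 fold change was 2.12 ± 0.69 (SE), with an edgeR unadjusted p of 0.0181 and an adjusted p of 0.998, and it lay between 1.62 and 2.93 when any library was left out. Its share of gamma A and B counts was 1.84% ± 1.30 in controls and 8.10% ± 2.95 in knockout-labelled libraries. In the authors' deposited table, whose ratio is control over knockout, its log2 value was -2.11 with an adjusted p of 0.281. Gm26672, an antisense gene over 1381 bases of its exons, averaged 0.21 CPM in controls and 0.27 CPM in knockout-labelled libraries.

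Pcdhgb2, a type B isoform, is another gamma gene whose groups did not overlap. It measured 10.8, 6.62 and 6.12 CPM in controls and 11.4, 20.5 and 13.5 CPM in knockout-labelled libraries. The lowest of the latter was just above the highest control. The fitted log2 fold change was 0.95 ± 0.32 (SE), with an edgeR unadjusted p of 0.0205 and an adjusted p of 0.998.

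Pcdhga5, the type A gene next downstream of Pcdhgb2, measured 1.55, 2.75 and 4.18 CPM in controls and 4.15, 9.98 and 6.53 CPM in knockout-labelled libraries. The groups touched, with control replicate 3 at nearly the level of labelled knockout replicate 1. The edgeR log2 fold change was 1.28 ± 0.47 (SE), with an unadjusted p of 0.0273 and an adjusted p of 0.998. In DESeq2 with the replicate number as a block it was 1.30 ± 0.40 (SE) with an adjusted p of 0.0334, a call that fit made and edgeR did not.

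Pcdhgb1, the highest type B gene by counts in controls, measured 23.1, 10.3 and 20.1 CPM there and 11.5, 2.51 and 14.96 CPM in knockout-labelled libraries. Each library labelled knockout lay below the control of the same number, although the groups overlapped. The edgeR log2 fold change was -0.88 ± 0.60 (SE), with an unadjusted p of 0.186. In DESeq2 with the replicate block it was -1.12 ± 0.32 (SE) with an adjusted p of 0.0206.

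The remaining high gamma A and B genes overlapped between groups. Pcdhga3 measured 16.9, 5.92 and 17.9 CPM in controls and 26.8, 11.5 and 15.5 CPM in knockout-labelled libraries, low in replicate 2 of both groups (log2 fold change 0.40 ± 0.47, SE). Pcdhga4 measured 8.28, 7.48 and 8.70 CPM in controls and 5.83, 3.89 and 11.3 CPM in knockout-labelled libraries (log2 fold change -0.22 ± 0.39, SE). Pcdhgb6 measured 14.5, 6.30 and 15.9 CPM in controls and 11.1, 21.1 and 15.4 CPM in knockout-labelled libraries (log2 fold change 0.37 ± 0.39, SE). All 3 are adhesive isoforms of the choosable kind.

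Across the clusters, 47 of the 57 genes passed the count filter and 10 did not. The edgeR quasi-likelihood test with Benjamini-Hochberg adjustment called 0 of the 47 at an adjusted p under 0.05, beside 0 of 15087 genes (0%). At an unadjusted p under 0.05 it held 6 of 47 members (12.8%), 4 with a positive and 2 with a negative fold change, beside 3.47% of all genes tested (1.98% higher and 1.5% lower). The 6 were Pcdhb4, Pcdhgb2, Pcdhga5 and Pcdhga11, higher, and Pcdhgc3 and Pcdhgc4, lower. Groups did not overlap for 5 of 47 members, 4 higher (Pcdhac1, Pcdhb4, Pcdhgb2 and Pcdhga11) and 1 lower (Pcdhgc3), beside 8.6% of all genes (4.88% higher and 3.73% lower). That share, 10.6%, is near the background.

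DESeq2 without a block called 0 members, beside 5 of 27368 genes (0.0183%, of which 0.011% higher and 0.00731% lower), and limma-voom called 0, beside 0%. With the replicate block DESeq2 called 2 of the 45 members with an adjusted p, Pcdhga5 higher and Pcdhgb1 lower, or 4.44%, beside 465 of 13044 genes (3.56%, of which 1.17% higher and 2.39% lower), again near the background. The replicate block in edgeR and in limma-voom called 0 members, beside 0%. In edgeR with the block, 9 of 47 members (19.1%) had an unadjusted p under 0.05, beside 12.5% of all genes tested. On counts simulated from these libraries without pairing, DESeq2 called many more unchanged genes than edgeR or limma-voom did, with the block and without it. How often each fit does so on paired libraries was not tested.

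By direction, 28 of the 47 fold changes were positive and 19 negative, with a median log2 fold change of 0.06, beside 0.00 over all genes tested. The beta genes split 13 to 8 with a median of 0.11, the gamma A genes 7 to 4 with a median of 0.33, and the gamma B genes 3 to 4 with a median of -0.02.

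**Figure D4:**
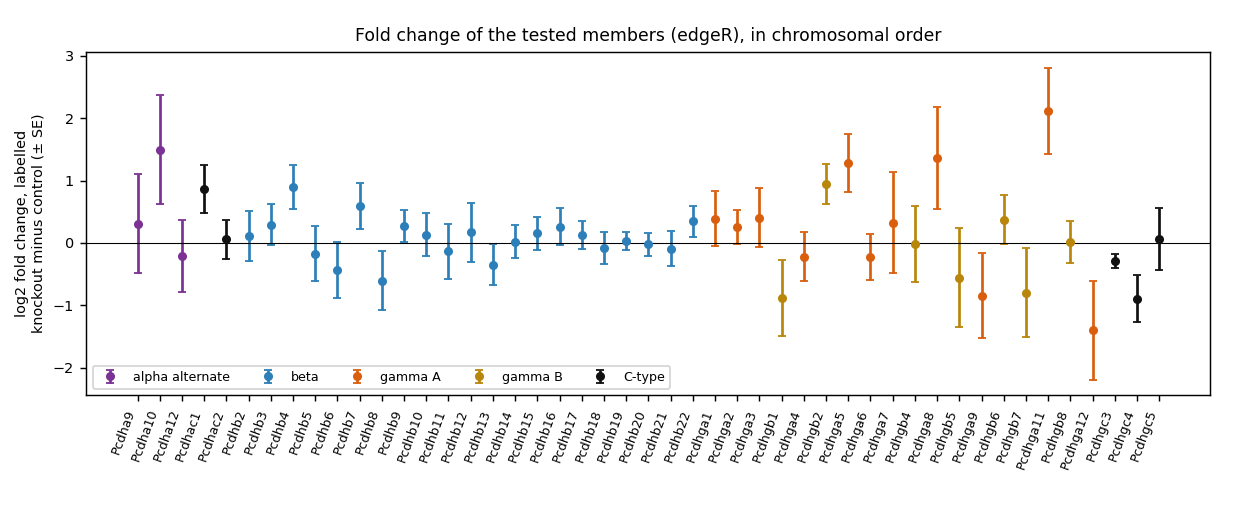
Log2 fold change (knockout-labelled libraries minus control, edgeR, bars are ± SE) of the 47 tested members in chromosomal order, coloured by class. The fold changes run from -1.41 (Pcdhga12) to 2.12 (Pcdhga11), the beta genes stay between -0.60 and 0.90, and Pcdhgc3 has the shortest bar.

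Several cell type marker lists differed between the groups beside these values. Summed dividing-cell markers ran from 706 to 2041 CPM in controls and 336 to 1311 CPM in knockout-labelled libraries, with all 5 genes lower (Mki67, Top2a, Cdk1, Ccnb1 and Aurkb, each called by DESeq2 with the replicate block). Of the neuroblast and neuron markers, 10 of 10 were in the table and 8 of them at 1 CPM or more in every library. They summed to 1146 to 1378 CPM in controls and 1379 to 1463 CPM in knockout-labelled libraries, which nearly touched. Map2 alone gave 858 to 1180 CPM of that sum. By fold change, 6 of the genes were higher and 2 lower. Dcx and Gad1 were called by DESeq2 with the block, higher in knockout-labelled libraries. Astrocyte markers summed to 1341 to 4357 CPM and 2801 to 6705 CPM, with Gfap, Aqp4 and Slc1a2 called higher by the same fit. Oligodendrocyte lineage markers summed to 3352 to 4499 CPM and 3140.4 to 3285 CPM, with 5 called higher and 2 lower by that fit. Of the 10 neural stem cell markers, 6 were higher and 4 lower by fold change. The fit called 0 of them higher and 1 lower, Nes (864, 1050 and 497 CPM in controls, 748, 719 and 328 CPM in knockout-labelled libraries). DESeq2 with the replicate block called 3.56% of all genes, 1.17% higher and 2.39% lower. The part of these lists in the protocadherin values was not tested.

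Genes related to the clusters by function were read from lists. Of the non-clustered protocadherins and the Fat and Dachsous cadherins, 17 of 18 listed genes were in the table and 16 were tested. By edgeR 0 passed (0% of all genes), with 1 at an unadjusted p under 0.05, beside 3.47% of all genes. Of the 16 fold changes 12 were negative, with a median log2 fold change of -0.22. Pcdh17, which promotes the collective growth of axons in mouse, measured 121, 137 and 116 CPM in controls and 110.0, 80.9 and 102 CPM in knockout-labelled libraries, lower in all 3 (log2 fold change -0.35 ± 0.15, SE; edgeR unadjusted p of 0.0476). Pcdh11x, an X-linked protocadherin, measured 67.6, 84.4 and 36.3 CPM in controls and 54.8, 27.7 and 26.2 CPM in knockout-labelled libraries. Its highest levels were in control replicates 1 and 2, the controls with Y-linked transcripts, and the part of sex was not tested. The groups overlapped for Pcdh11x, the edgeR log2 fold change was -0.79 ± 0.39 (SE), and DESeq2 with the replicate block gave an adjusted p of 0.0490. The same fit called Fat4, a partner of Dachsous in planar polarity, lower (35.8, 64.5 and 38.5 CPM in controls, 17.1, 49.3 and 27.1 CPM in knockout-labelled libraries, adjusted p of 0.0368). Over all genes that fit called 3.56%, of which 2.39% lower. Dchs2, a Dachsous cadherin, had a log2 fold change of -0.70 ± 0.39 (SE), and the giant cadherin Fat1, the highest of the list at 536 ± 40.1 CPM in controls, had -0.26 ± 0.16 (SE).

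The regulators of the clusters' architecture and chromatin were all expressed. Of the 25 listed, 25 were tested, 7 were higher and 18 lower, and the median log2 fold change was -0.04. The edgeR test called 0 (0% of all genes), with 0 at an unadjusted p under 0.05, beside 3.47% of all genes. Dnmt1, the maintenance DNA methyltransferase, measured 264, 461 and 205 CPM in controls and 229, 267 and 143 CPM in knockout-labelled libraries. Each of the latter was below the control of its number, and the edgeR log2 fold change was -0.54 ± 0.35 (SE). DESeq2 with the replicate block gave an adjusted p of 0.0456, in a fit that called 3.56% of all genes (2.39% lower). Rad21, the cohesin subunit, had a log2 fold change of -0.28 ± 0.27 (SE), Trim28, a corepressor of zinc finger proteins, -0.30 ± 0.17 (SE), and Tet2, which oxidises methylated cytosine, 0.20 ± 0.16 (SE).

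Of the processing enzymes and intracellular partners, 22 of 22 were tested, 14 were higher and 8 lower, and the median log2 fold change was 0.06. Here edgeR called 0 (0% of all genes), with 0 at an unadjusted p under 0.05, beside 3.47% of all genes. Psen2, a catalytic subunit of the gamma-secretase that cuts the proteins inside the membrane, had a log2 fold change of 0.64 ± 0.50 (SE). Pdcd10, an adaptor protein, measured 49.9, 45.1 and 47.9 CPM in controls and 51.8, 54.2 and 53.3 CPM in knockout-labelled libraries, higher in all 3 (log2 fold change 0.16 ± 0.11, SE). Nlgn1, a synaptic adhesion protein, had 0.19 ± 0.14 (SE), and the kinase Fyn, the highest of the list, -0.12 ± 0.18 (SE).

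On the chromosome, 65 other genes of the table lay between the members or within 1000000 bases of them, and 42 were tested. Of these 16 were higher and 26 lower, with a median log2 fold change of -0.03. By edgeR 0 passed (0% of all genes), and 3 of the 42 had an unadjusted p under 0.05, all lower. Of all genes tested 3.47% had such a p, 1.98% higher and 1.5% lower. Spry4 (chr18:38586268-38601268), a feedback inhibitor of receptor tyrosine kinase signalling, measured 147, 248 and 167 CPM in controls and 107, 114 and 62.8 CPM in knockout-labelled libraries. All 3 of the latter were below all controls, and the edgeR log2 fold change was -0.98 ± 0.28 (SE; unadjusted p of 0.00976, adjusted p of 0.998). DESeq2 with the replicate block gave an adjusted p of 8.45e-05, in a fit that called 3.56% of all genes (2.39% lower). Gm27804, which lies within Spry4 and is not a separate locus, had 11, 18 and 12 counts in controls and 0, 1 and 2 counts in knockout-labelled libraries. Gm23205 had 17, 12 and 13 counts in controls and 3, 8 and 3 counts in knockout-labelled libraries. Ndfip1, an adaptor of Nedd4 ubiquitin ligases and the highest neighbour, had a log2 fold change of -0.03 ± 0.24 (SE).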

How the data were processed

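Whole-number counts of 6 libraries, not normalized, were deposited per gene, per the file headers. Further columns give the authors' mean of scaled counts (a signal), ratio (fold), log2 ratio, p-value and adjusted p-value, each a deposited column. The submitters' processing notes name mm10, HISAT2 2.1.0 and Bowtie2 2.2.3. The sources used here give neither the counting tool nor its strand setting, so reads of overlapping antisense genes cannot be told apart from a member's own.

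The members and lists were chosen with earlier results of these data known. Genes were tested with edgeR 4.0.16 (R 4.3.3, limma 3.58.1): TMM scaling, filterByExpr (minimum count 10, minimum total 15), robust quasi-likelihood fit on group over all 6 libraries, Benjamini-Hochberg adjustment at 0.05 over all genes tested. SEs of log2 fold changes came from the F statistic. CPM uses TMM-scaled library sizes, on which 1 CPM stands for 16.7 to 18.6 counts, and log2 CPM a prior count of 2. Exon lengths are from GENCODE M21 (GRCm38), where all 57 members had the same ends. Of each member's unshared exon, a median of 96.4% of 50-base windows (lowest 74.7%, Pcdha7) occurred in no other transcript searched. Besides alpha genes, the lowest were Pcdhgb1 (83.2%), Pcdhgb2 (83.6%), Pcdhb12 (88.0%) and Pcdhgb6 (88.1%). Other beta, gamma A and gamma B genes also lay below that median, among them Pcdhgb5 (93.6%), Pcdhb20 (94.5%) and Pcdhb5 (94.8%). Counts of such genes may be split with near copies.

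Alternatives were DESeq2 1.42.0, limma-voom, other scalings, other filters, each library left out, and the replicate number as a block. Titles number both groups 1 to 3. After subtraction of group means, log2 CPM of same-numbered libraries correlated across genes at 0.43, 0.35 and 0.51, so the numbers were taken to pair the libraries. All pairs of libraries differed beyond sampling noise (chi-square per degree of freedom 19.4 or more). The fits were tested on simulated data. Members named were the C-type genes, the 2 highest per kb of each other class, and those past an unadjusted edgeR p of 0.05 or called by any test. From each list came the 3 smallest p-values and the highest level. Other genes were chosen after their values were seen.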

Additional observations from a re-analysis of the deposited data

How the results depend on the processing

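The replicate block and the choice of tool moved the counts of calls. The edgeR count of 0 over all genes became 5 with DESeq2, 1 with no low-count filter, 465 with DESeq2 and the replicate block, and 0 to 2 when a library was left out. DESeq2 with the replicate block called 2 clustered protocadherins, 2 non-clustered protocadherins, 1 regulator and 1 chromosome neighbour, beside 3.56% of all genes. Of each, edgeR called 0, and the cause was not tested. DESeq2 with the replicate block changed no other count, and the replicate block in edgeR and limma-voom changed none. The summed levels and effective numbers moved by less than the spread between replicates under every alternative run. Of the genes named by rule, 10 changed sign under some alternative. When a library was left out, log2 fold changes ran from -0.19 to 1.48 for Pcdha9, -0.73 to 0.49 for Pcdha12, -0.29 to 0.28 for Pcdhac2, -0.51 to 0.49 for Pcdhb5, -0.18 to 0.060 for Pcdhb20, -0.0076 to 0.66 for Pcdhga3, -0.74 to 0.073 for Pcdhga4, -0.46 to 0.66 for Pcdhgc5, -0.20 to 0.033 for Fyn and -0.18 to 0.17 for Ndfip1. Of the genes named after their values were seen, Pcdhga7 (-0.13 to 2.07), Pcdhgb5 (-0.98 to 0.93) and Pcdhgb8 (-0.19 to 0.28) also changed sign. Pcdhb5 was also at 0.014 with limma-voom, 0.018 in edgeR with the replicate block and 0.031 in DESeq2 with it. Depth limits the alpha alternate genes most: 9 of 12 were not tested by edgeR or limma-voom.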
